A study of Mus musculus with 2 samples.

Results

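The genes described here encode the nuclear subunits of oxidative phosphorylation, taken by symbol from the count tables of mouse liver. A gene was taken when its symbol began with Nduf and one of the letters a, b, c, s or v and a digit, was Sdha, Sdhb, Sdhc or Sdhd, or began with Uqcr, Atp5 or Cox followed by a digit from 4 to 8. This rule found 84 of the 24421 genes, of which 76 were measured, that is, had a mean of at least 1 count per 1000000 (CPM) and at least 20 counts in both libraries together. Complex I gave 35 genes, complex II 4, complex III 8, complex IV 20 and complex V 15, with Ndufa4 placed in complex IV, where its protein is found. The remaining 2, Atp5s and Atp5sl, carry the name but are not subunits of the enzyme.

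The liver came from male C57BL/6 mice that were 6 weeks old when a high-fat diet began and ate it for 12 weeks. The control library is of RORα f/f genotype, in which the gene of the nuclear receptor RORα (Rora) is flanked by loxP sites but intact. The other, here called the LKO-labelled library after its title, is of RORα f/f:Alb-Cre genotype, in which Cre recombinase is driven by the albumin promoter, active in hepatocytes and not in most other liver cells. Both share the floxed alleles and the diet, and no Cre-only control is among the samples analysed here. Each genotype has 1 library. The number of animals behind each is not stated in the sources at hand. No difference below therefore has a replicate check, no test was made, and the intervals cover counting error only.

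The tables held 128201591 counts in the control and 131843686 in the LKO-labelled library. Major urinary protein genes (Mup, 20 genes), which encode abundant secreted proteins of the liver, took 23.0% of the counts in the control and 9.08% in the LKO-labelled library. The usual TMM scaling, which sets the bulk of genes as equal, gave factors of 0.865 and 1.16, so all CPM below depend on it. Scaling by total count would add 0.42 to every log2 ratio. Rora, the targeted gene, had 3701 counts in the control and 3677 in the LKO-labelled library, or 33.4 and 24.1 CPM. Its log2 ratio (LKO-labelled over control) was -0.47 with TMM scaling and -0.05 with total counts. The whole-gene total of Rora therefore does not check the label. Reads outside the deleted exons would count as well, and counts by exon were not at hand. All 8 hepatocyte markers were measured in both libraries, with a median log2 ratio of -0.35 (LKO-labelled over control), and 3 of them were at least 1.5-fold lower. For Kupffer cells, all 5 measured markers were 1.5-fold or more lower in the LKO-labelled library (summed CPM of the 6 markers 73.8 and 39.5). Of 5 stellate cell markers, 3 were at least 1.5-fold higher (summed CPM 32.2 and 56.0). Des was short of that (log2 ratio 0.46), and Lrat lay the other way (-0.18). Of all measured genes, 9.76% were at least 1.5-fold lower and 10.5% higher. The part of these cell types in the results below was not tested. In bulk tissue, fewer cells of a type and less RNA per cell cannot be told apart.

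Oxidative phosphorylation takes place in the inner mitochondrial membrane. Complexes I and II pass electrons from NADH and succinate to ubiquinone, complex III passes them to cytochrome c, and complex IV to oxygen. Complexes I, III and IV pump protons, and complex V, the ATP synthase, uses the returning protons to make ATP. The catalytic machinery is old: core subunits have counterparts in bacteria or carry redox centres. Most accessory (supernumerary) subunits were added later, and they help to assemble, hold or tune the complexes. In liver these complexes burn the fatty acids and amino acids that hepatocytes take up, and pay for gluconeogenesis and urea synthesis. Some core subunits are encoded in mitochondrial DNA and were not analysed here.

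Known activators of the nuclear subunit genes, such as NRF1 and the ETS factor GABPA, bind promoters near the start site, and RORα binds the hexamer AGGTCA preceded by an AT-rich stretch. RefSeq (GRCm38.p6) promoter windows, 300 bases long, were matched for 69 of the genes, giving 75 windows. The 3 genes with the most of the 8 searched motifs upstream of the start are printed 5′ to 3′, up to 250 bases and ending before the first annotated base of the gene, to show what such a promoter looks like. Capitals mark any searched motif on either strand.
Atp5l, chr9:44920743-44920992, minus strand: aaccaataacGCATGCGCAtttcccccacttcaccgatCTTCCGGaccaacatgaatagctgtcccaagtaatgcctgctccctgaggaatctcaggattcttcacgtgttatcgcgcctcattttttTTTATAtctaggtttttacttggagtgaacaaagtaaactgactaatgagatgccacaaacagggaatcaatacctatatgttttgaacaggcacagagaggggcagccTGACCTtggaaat
Cox6a1, chr5:115348982-115349208, minus strand: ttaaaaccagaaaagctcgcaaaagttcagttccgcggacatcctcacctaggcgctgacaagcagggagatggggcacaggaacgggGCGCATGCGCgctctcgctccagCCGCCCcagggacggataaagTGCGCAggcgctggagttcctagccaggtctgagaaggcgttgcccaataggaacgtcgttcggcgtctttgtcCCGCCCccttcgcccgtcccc
Ndufb6, chr4:40279422-40279671, minus strand: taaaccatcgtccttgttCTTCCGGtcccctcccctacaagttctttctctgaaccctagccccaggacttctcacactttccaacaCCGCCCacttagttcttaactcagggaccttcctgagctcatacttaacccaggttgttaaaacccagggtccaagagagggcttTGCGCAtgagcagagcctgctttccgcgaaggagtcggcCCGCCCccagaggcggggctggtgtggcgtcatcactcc

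The upstream stretch of Atp5l, a subunit of the membrane part of ATP synthase, held 5 of the motifs. These were the NRF1 motif, the shorter NRF1 motif, an ETS motif, the receptor hexamer and the letters TATAAA. The NRF1 motif and its shorter form overlapped, and the ETS, hexamer and TATAAA matches were on the opposite strand. Cox6a1 and Ndufb6 held 3 each, and both had the SP1 motif and the shorter NRF1 motif.

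Over all windows of the subunit genes, the NRF1 motif GCATGCGC was found in 10 of 75 (13.3%), against 5.01% of the windows of measured genes and 2.71% of all 32851 windows. The shorter NRF1 motif TGCGCA, which can overlap it, was in 25.3%, against 13.2% and 7.76%. YY1 binds AAGATGGC, which was in 16% of the subunit windows, against 4.44% and 2.75%. The ETS motif CCGGAAG was in 21.3%, against 17.3% and 8.86%. The nuclear receptor hexamer AGGTCA was in 21.3%, against 13.4% and 16.3%, and the form TAGGTCA, which contains it and binds ROR and REV-ERB receptors as monomers, in 3 windows (4%), against 2.11% and 2.61%. The SP1 motif GGGCGG was in 38.7% of the subunit windows, against 61.1% of the windows of measured genes and 35.7% of all windows. TATAAA was in 10.7% of the subunit windows, above the 7.84% of measured genes but below the share of all windows. In the windows of measured subunit genes alone, TATAAA was in 8.57%. Both strands were searched for each motif. A match describes the letters only, and shares of a short motif move with base composition: the median GC content was 57.3% in the subunit windows and 52.7% in all.

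Medians of genes with and without each motif were compared as a description, with no test. The median log2 ratio of CPM, LKO-labelled over control library, was -0.46 for the 10 measured genes with the NRF1 motif and -0.52 for the 54 without. It was -0.41 for the 11 with the YY1 motif, against -0.52 for the 53 without. With the hexamer AGGTCA it was -0.52 in 15 genes, and without it -0.49 in 49. The gaps were wider for TATAAA (-0.67 in 5 genes, -0.48 in 59), the SP1 motif (-0.42 in 25, -0.55 in 39) and the shorter NRF1 motif (-0.39 in 18, -0.52 in 46). For the ETS motif the medians were -0.45 in 16 genes and -0.52 in 48, and for TAGGTCA -0.59 in 3 and -0.48 in 61.

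Most subunit transcripts made up a smaller share of the scaled RNA in the LKO-labelled library. The summed level of the 84 genes was 10525 CPM in the control and 8254 CPM in the LKO-labelled library. The 95% counting interval of the ratio lay below 1 for 71 of the 76 measured genes and above 1 for 4, where 38.1% of all measured genes lay below and 38.1% above. The interval of Uqcrc1 included 1. At least 1.5-fold lower, with an interval that excluded 1, were 25 of the 76, against 9.76% of all measured genes. None was 2-fold lower (2.62% of all measured genes), while 52 were lower by at least 0.32 on the log2 scale (22.6%). Only Ndufa4l2 was at least 1.5-fold higher, where 10.5% of all measured genes were, and it was past 2-fold, where 3.83% were. The median log2 ratio was -0.47, with a range of -0.92 to 1.14, beside -0.00 over the 11137 measured genes.

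This direction rests on the scaling. As a share of all raw counts, the genes took 0.910% in the control and 0.955% in the LKO-labelled library. With total counts as the scale, the median became -0.05, no gene was 1.5-fold lower, and 40 genes lay below 1 and 27 above. Measured genes as a whole then lay below 1 in 10.8% and above in 74.5%. A scaling shifts all log2 ratios alike, so the subunit genes stayed on the low side of the others by construction. Totals without the Mup genes gave 54 below and 11 above, with a median of -0.29. Of all measured genes, 23.5% then lay below 1 and 55.0% above, with a median of 0.18.

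The genes differed among themselves by class, and the difference between the class medians does not depend on the scaling. As classed here, all 25 genes past 1.5-fold were among the 53 accessory subunits, and none was among the 21 core subunits. The median log2 ratio was -0.26 for core subunits (range -0.55 to 0.04) and -0.57 for accessory subunits (range -0.92 to 0.02), a difference of 0.31. With total counts as the scale, 14 core subunits lay above 1 and 4 below, while 36 accessory subunits lay below and 11 above. Of all measured genes, 74.5% then lay above 1 and 10.8% below. Transcript length differs between the classes too, with a median of 1604 nt for core and 738 nt for accessory subunits, and its part is described further on.

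**Figure D1:**
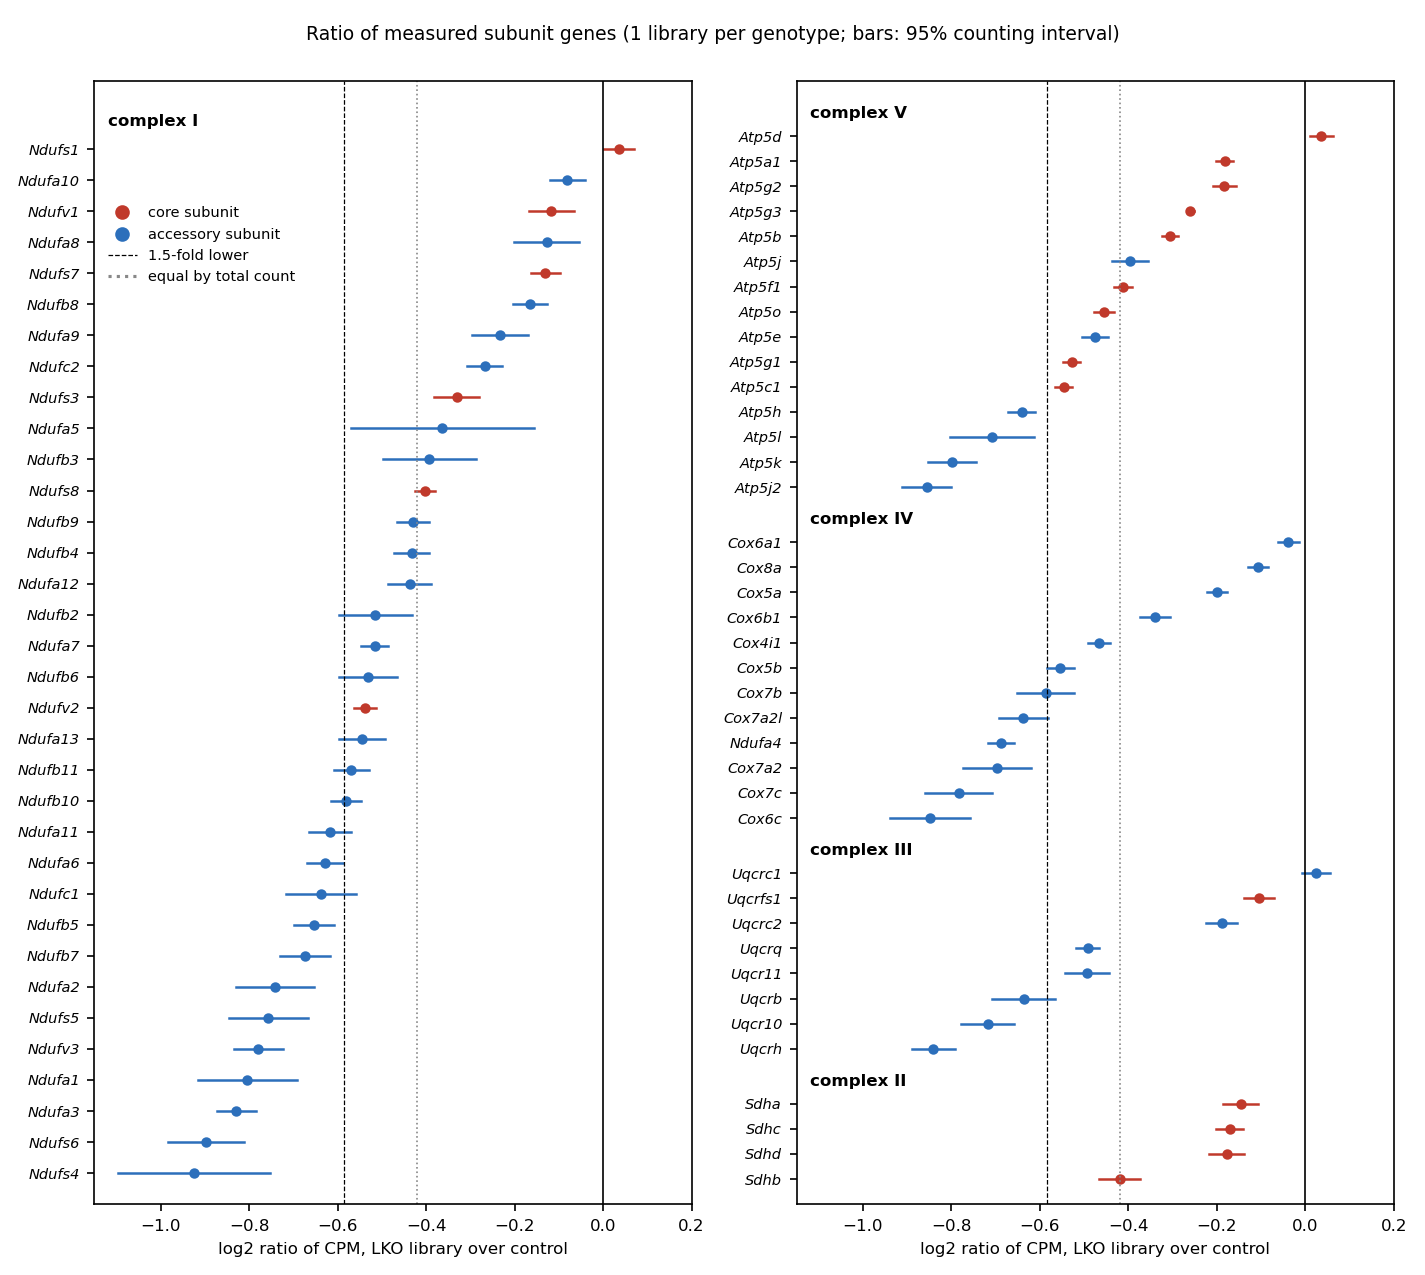
Log2 ratio of CPM, LKO-labelled over control library, for measured core (red) and accessory (blue) subunit genes, by complex, with 95% counting intervals and 1 library per genotype. All genes left of the dashed line (1.5-fold lower) are accessory; the dotted line marks where a gene would be equal by total count.

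Complex I, NADH dehydrogenase, had a median log2 ratio of -0.52 over its 35 genes, of which 12 were at least 1.5-fold lower. Its 7 nuclear core subunits form the matrix arm, which takes electrons from NADH through a flavin and a chain of iron-sulfur clusters. Ndufs1, the largest of them, was at 111 CPM in the control and 114 CPM in the LKO-labelled library (log2 ratio 0.04). Ndufv1, which binds NADH and the flavin, was at 49.1 and 45.2 CPM (-0.12). Ndufs7, which carries the last cluster before ubiquinone, was at 121 and 110.3 CPM (-0.13). These 3 had the highest ratios of the 7.

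Other core subunits of the arm were further from 1. Ndufs3 was at 55.3 and 43.9 CPM (-0.33). The cluster protein Ndufs8, the most abundant complex I gene by CPM, was at 294 and 222 CPM (-0.40). Ndufv2, the partner of Ndufv1, was at 251 and 173 CPM (-0.54), the lowest ratio of the 7. The median of the 7 was -0.33, against -0.56 for the 28 accessory subunits.

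The lowest ratio of all measured subunit genes belonged to Ndufs4 (GRCm38, chr13:114287795-114388258, minus strand), an accessory subunit of the matrix arm that is needed for a stable NADH-oxidizing module. It was at 6.04 CPM (669 counts) in the control and 3.18 CPM (485 counts) in the LKO-labelled library, 1.90-fold lower (95% counting interval 1.69 to 2.14). Its neighbour in that arm, Ndufs6, which binds zinc, was at 23.6 and 12.7 CPM, 1.86-fold lower (1.76 to 1.98). Ndufa3, of the membrane arm, was at 87.2 and 49.1 CPM, 1.78-fold lower (1.72 to 1.83). Low and high levels thus both occurred among the lowest ratios.

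Ndufa1, a small membrane arm subunit encoded on the X chromosome, was at 13.3 and 7.59 CPM, 1.75-fold lower. Ndufv3, which sits beside Ndufv1 and Ndufv2, was at 52.4 and 30.5 CPM, 1.72-fold lower. Among the others past 1.5-fold, Ndufs5 was at 20.6 and 12.2 CPM and Ndufa2 at 21.3 and 12.7 CPM. Ndufs5 lies on the intermembrane side and Ndufa2 in the matrix arm, so the genes past 1.5-fold came from both arms.

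Ndufb7 was at 48.3 and 30.3 CPM and Ndufb5 at 74.3 and 47.2 CPM, both membrane arm subunits. Ndufc1 was at 24.7 and 15.9 CPM, Ndufa6 at 92.7 and 59.9 CPM and Ndufa11 at 70.6 and 46.0 CPM (1.53-fold lower). Ndufb10 was at 130.4 and 87.1 CPM and lay just short of the threshold. By position, the median log2 ratio was -0.42 for the 16 matrix arm genes and -0.55 for the 19 membrane arm genes. The matrix arm held all 7 core subunits, and its 9 accessory genes had a median of -0.63.

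Among the accessory genes closest to equality, Ndufa10, a large membrane arm subunit related to nucleoside kinases, was at 82.6 and 78.1 CPM (-0.08). Ndufa8 was at 24.3 and 22.3 CPM (-0.13) and Ndufb8 at 88.9 and 79.4 CPM (-0.16). The remaining 13 accessory genes of complex I lay between these and the 1.5-fold threshold, with log2 ratios from -0.58 (Ndufb10) to -0.23 (Ndufa9). Per kb of transcript, the highest control levels in the complex were those of Ndufa7 (297 CPM per kb, log2 ratio -0.52), Ndufs8 (293) and Ndufb10 (178), and the lowest was that of Ndufs4 (3.55).

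Complex II, succinate dehydrogenase, is the one complex with no subunit encoded in mitochondrial DNA, and it also works in the citric acid cycle. All 4 genes are core, and none was 1.5-fold lower. Sdha, the flavoprotein that oxidizes succinate, was at 84.1 and 76.1 CPM in the control and the LKO-labelled library (log2 ratio -0.15). The membrane anchors Sdhc and Sdhd were at 146 and 129 CPM (-0.17) and at 82.8 and 73.2 CPM (-0.18). Sdhb, which carries the iron-sulfur clusters, stood apart at 69.6 and 52.0 CPM (-0.42). The median of -0.17 was the highest of the 5 complexes, and it took the opposite sign, 0.25, with total counts as the scale and 0.0057 with totals without the Mup genes.

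Complex III, ubiquinol-cytochrome c reductase, had a median log2 ratio of -0.49, and 3 of its 8 genes were at least 1.5-fold lower. Uqcrfs1, the Rieske iron-sulfur protein and the one nuclear core subunit that the rule takes, was at 115 and 107 CPM (-0.10). The large matrix-side proteins Uqcrc1 and Uqcrc2, called core proteins by their names but without a redox centre, were at 124 and 126 CPM (0.02) and at 106 and 93.1 CPM (-0.19). These 3 genes lay near equality, apart from the rest.

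The small subunits of complex III were lower. The hinge protein Uqcrh, which lies where cytochrome c docks, was at 71.5 and 39.9 CPM, 1.79-fold lower (1.73 to 1.85). Uqcr10 was at 44.9 and 27.3 CPM and Uqcrb, near the ubiquinone site, at 30.7 and 19.8 CPM, 1.65-fold and 1.55-fold lower. Uqcrq was at 219 and 155 CPM and Uqcr11 at 60.9 and 43.2 CPM, both 1.41-fold lower. The 5 small subunits thus all had lower ratios than the 3 large proteins, with no overlap. Uqcrq had the highest control level per kb in the complex (144 CPM per kb), followed by Uqcr11 (137) and Uqcrh (131).

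Complex IV, cytochrome c oxidase, has its core subunits in mitochondrial DNA, so its nuclear subunits all count as accessory here. The 12 liver subunits had a median of -0.57, and 6 were at least 1.5-fold lower. Cox6c was at 21.1 and 11.7 CPM, 1.80-fold lower (1.69 to 1.92), and Cox7c at 28.8 and 16.8 CPM, 1.72-fold lower. Cox7a2, the liver form of subunit 7a, was at 27.0 and 16.6 CPM, and Ndufa4 at 190.4 and 118 CPM, 1.62-fold and 1.61-fold lower. Cox7a2l, a supercomplex factor related to subunit 7a, was at 51.6 and 33.2 CPM and Cox7b at 37.5 and 24.97 CPM. Cox7b lay just past the threshold. Apart from Ndufa4, the genes past it had lower CPM than every liver subunit short of it.

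The more abundant genes of complex IV had ratios nearer to 1. Cox6a1, the liver form of subunit 6a, was at 214 and 208 CPM (log2 ratio -0.04). Cox8a, the general form of subunit 8, was at 250.3 and 232 CPM (-0.11), and Cox5a, which binds thyroid hormone metabolites, at 265 and 231 CPM (-0.20). Cox6b1 was at 123 and 97.4 CPM, Cox4i1, a large subunit that senses ATP, at 247 and 179 CPM, and the zinc-binding Cox5b at 157 and 107 CPM. Across the 12 genes, the log2 ratio was higher where log2 mean CPM was higher (r = 0.80, rho = 0.83), a description across genes of the same 2 libraries. The relation had the same sign but was weaker in complex V (r = 0.60), the 53 accessory subunits (r = 0.45) and complex I (r = 0.35). Over all 76 measured genes r was 0.10 and rho 0.42. Over the 21 core subunits the sign was opposite (r = -0.30, rho = -0.44). Per kb, Cox8a (455 CPM per kb), Cox5a (411) and Cox6a1 (375) were the highest in the complex.

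Complex V, ATP synthase, held the most abundant transcript of all the subunit genes. Subunit c, which forms the rotating ring in the membrane, is made by 3 genes with different import signals and the same mature protein. Atp5g3 was at 1975 CPM in the control and 1649.8 CPM in the LKO-labelled library (log2 ratio -0.26), Atp5g1 at 398 and 276 CPM (-0.53), and Atp5g2 at 194 and 171 CPM (-0.18). Atp5g3 thus gave most subunit c transcripts in both libraries. Per kb it reached 2732 CPM in the control library, where the next highest gene of the complex, Atp5e, was at 407 and Atp5o at 336.

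In the catalytic F1 head, the median log2 ratio of 5 genes was -0.31, and none was 1.5-fold lower. The paired subunits Atp5a1 and Atp5b, which form the catalytic sites, were at 339 and 298 CPM (-0.18) and at 428 and 346 CPM (-0.31). In the rotor stalk, Atp5c1 was at 376 and 258 CPM (-0.55), Atp5d at 187 and 192 CPM (0.04) and Atp5e at 171 and 123 CPM (-0.48). The intervals of these stalk subunits did not overlap, but at such high counts they are narrow and cover counting error only. Of all measured genes, 38.1% had an interval below 1 and 38.1% above.

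The peripheral stalk, which holds the head still, had a median of -0.43 over 4 genes. Atp5f1 was at 333.1 and 250.4 CPM (-0.41), Atp5o, which ties the stalk to the head, at 281 and 205 CPM (-0.46), and Atp5j at 87.3 and 66.4 CPM (-0.40). Atp5h was at 165 and 106 CPM, 1.56-fold lower. Of these 4, Atp5h was the one past the threshold.

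All 3 small membrane subunits of the synthase that the rule takes were past the threshold, with a median of -0.80. Atp5j2 (chr5:145183698-145192062, minus strand) was at 56.6 and 31.3 CPM, 1.81-fold lower (1.74 to 1.88), and Atp5k, which helps the synthase to form dimers, at 54.6 and 31.4 CPM, 1.74-fold lower. Atp5l, whose promoter is printed above, was at 17.6 and 10.8 CPM, 1.63-fold lower, but it has 9 close copies elsewhere in the genome, and how the authors treated reads that align to several places is not given. Of all the genes, 20 have such a copy and 37 overlap another annotated gene, and without both kinds 10 of 30 measured genes remained 1.5-fold lower. Atp5j overlaps Gabpa, the gene of the ETS factor, on the opposite strand, and Gabpa was at 13.3 and 15.5 CPM.

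**Figure D2:**
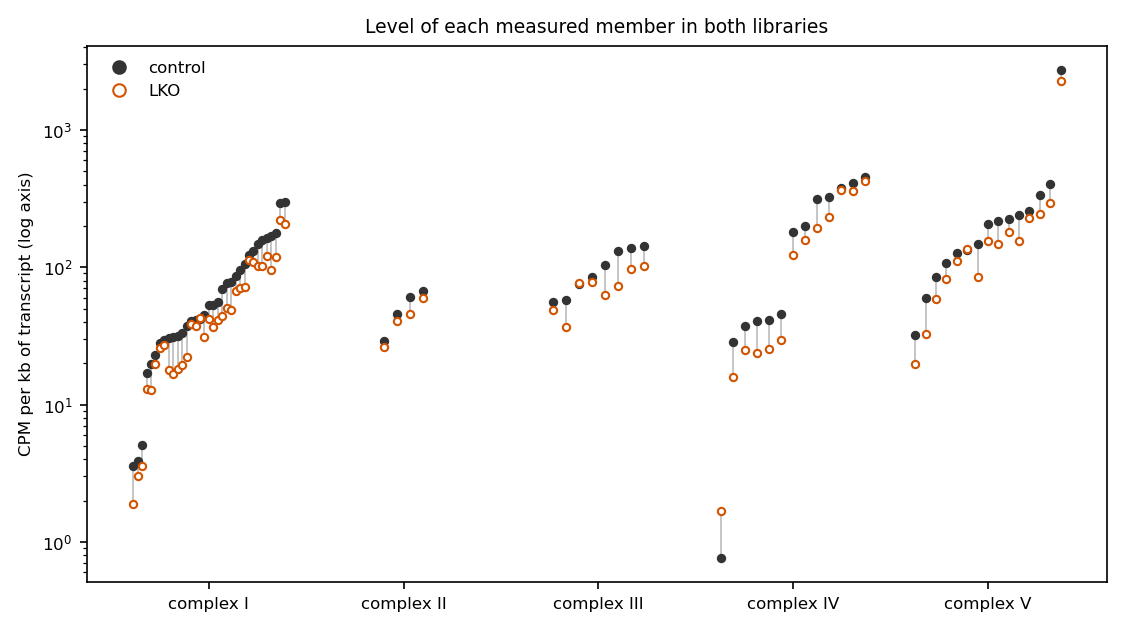
Level of each measured gene in CPM per kb of its longest coding transcript (log axis), in the control library (filled) and the LKO-labelled library (open), by complex. Atp5g3 stands alone at 2732 CPM per kb in the control library, and most open points lie slightly below the filled ones.

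Several genes that the rule takes encode forms of complex IV subunits used in other tissues. In these liver libraries they were near 0. Cox4i2, the form of lung and low oxygen, had 17 counts in the control and 14 in the LKO-labelled library. The muscle forms were as low: Cox7a1 had 50 and 80 counts, Cox6a2 4 and 7, and Cox8b 6 and 0. The testis forms were Cox6b2 with 75 and 78 counts and Cox7b2 and Cox8c with 0 in both. A count of 0 allows up to 3 counts in a library, and all 7 fell below the level taken as measured. Markers of muscle, fat and testis were low as well. The 9 muscle markers summed to 130 and 496 counts, of which Tnnt2, a cardiac troponin gene, gave 126 and 486 (1.14 and 3.19 CPM, 2.80-fold higher). The 5 adipocyte markers summed to 0 and 42, and the 5 testis markers to 0 and 21.

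Ndufa4l2 was the only gene of this kind that was measured, and it passed only through the LKO-labelled library. Ndufa4l2 lies at chr10:127514967-127517154 (plus strand) and encodes a relative of Ndufa4 that is known as a target of hypoxia signalling. It had 79 counts in the control and 240 in the LKO-labelled library, or 0.713 and 1.57 CPM, 2.21-fold higher (1.71 to 2.89). The level stayed far below the 190.4 CPM of Ndufa4. The gene overlaps Shmt2 on the opposite strand, which was at 189 and 216 CPM, and as the use of strand is not given, reads of the pair cannot be told apart. Of the 2 genes that are not subunits, Atp5s had 69 and 118 counts and was not measured, and Atp5sl, an assembly factor by its newer name Dmac2, was at 35.1 and 37.9 CPM (log2 ratio 0.11).

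In this pair of libraries, shorter protein-coding transcripts had lower median ratios, and most subunit transcripts are short. Across the 76 genes, the log2 ratio correlated with log2 transcript length (r = 0.35, rho = 0.44). The relation was not the same in all groups: r was 0.42 in the 35 genes of complex I, 0.03 in the 21 core subunits and -0.49 in the 12 liver subunits of complex IV. The median was -0.67 for the 14 genes under 600 nt, of which 9 were 1.5-fold lower, -0.46 for the 36 of 600 to under 1200 nt and -0.21 for the 26 of 1200 nt or more. Other protein-coding genes outside the mitochondrial and ribosomal lists had medians of -0.49 (76 genes), -0.27 (663 genes) and 0.03 (9542 genes) in the same classes, and 32 of those 76 under 600 nt were 1.5-fold lower. The 86 measured cytosolic ribosomal protein genes, which are short as well, had a median of -0.80, and the 77 mitochondrial ones -0.38. Whether this trend with length is a property of the livers or of the libraries cannot be told apart with 1 library per genotype.

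**Figure D3:**
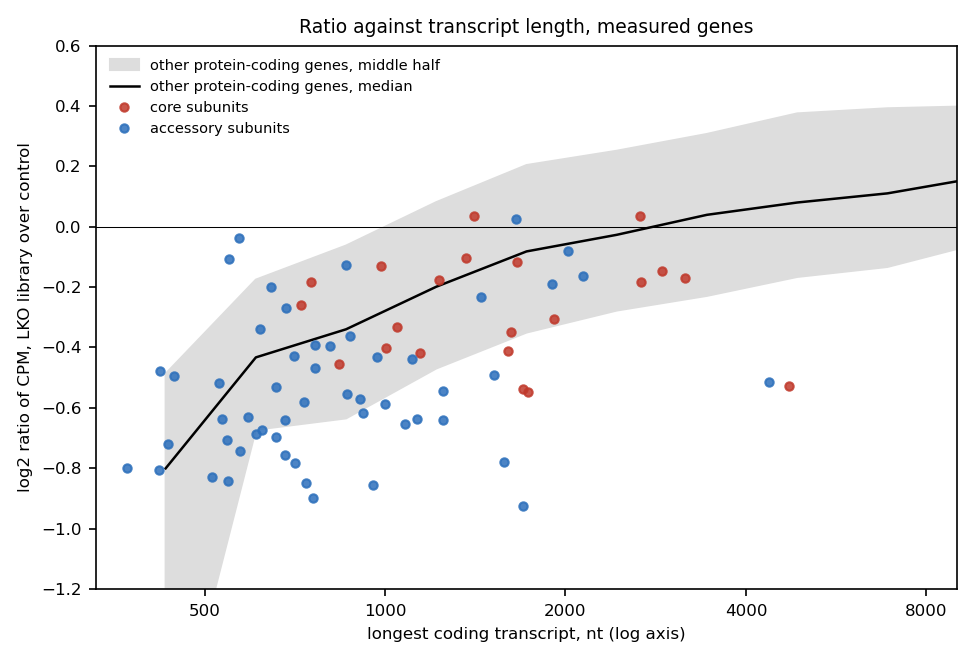
Log2 ratio of CPM, LKO-labelled over control library, against the length of the longest coding transcript (log axis), for measured core and accessory subunit genes and for other protein-coding genes (line, median; band, quartiles). Subunit genes lie mostly below the line at the same length, and the shortest are accessory.

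The class contrast was also present within both length classes that held core genes. From 600 to under 1200 nt, the 7 core genes had a median of -0.33 and the 28 accessory genes -0.58. At 1200 nt or more, the medians were -0.18 for 14 core and -0.49 for 11 accessory genes. After the trend with length and GC content was removed, the median over the 76 genes was -0.24 and the difference between core and accessory subunits 0.15. Of the 25 genes past 1.5-fold, 3 remained so: Ndufv3 (-0.77), Ndufs4 (-0.70) and Atp5j2 (-0.60). The medians of the complexes were then -0.30 for I, -0.13 for II, -0.22 for III, -0.24 for IV and -0.27 for V.

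Subunits and electron carriers outside the symbol rule varied in ratio. Of 9 such genes, 3 were at least 1.5-fold lower, where 9.76% of all measured genes were. The median log2 ratio was -0.29, nearer to that of core subunits (-0.26) than of accessory subunits (-0.57). Usmg5, a small membrane subunit of ATP synthase, was at 45.4 and 24.8 CPM (-0.87), and 2010107E04Rik, a small proteolipid of the synthase, at 55.8 and 36.1 CPM (-0.63). Cytochrome c, Cycs, was at 13.4 and 8.38 CPM (-0.68), whereas its partner in complex III, cytochrome c1 (Cyc1), was at 131 and 115 CPM (-0.19). Etfb, which feeds electrons from fatty acid oxidation, was the most abundant of the list at 226 and 185 CPM, and Etfdh, which passes them to ubiquinone, at 71.1 and 74.5 CPM (0.07).

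Assembly factors insert cofactors and join subunits. Their counts below stand beside the 9.76% of all measured genes that were 1.5-fold lower, and nothing particular to these lists is read from them. Of 13 measured for complex I, 3 were 1.5-fold lower: Ndufaf4 (8.62 and 4.31 CPM, interval of the fold 1.81 to 2.21), Ndufaf3 (log2 ratio -0.77) and Ndufaf6 (-0.67). The most abundant, Ecsit, was at 93.2 and 84.6 CPM, and Acad9 had the highest ratio (0.21). Of 9 for complexes II and III, 2 were lower, Sdhaf3 (1.44 and 0.616 CPM, -1.23) and Ttc19 (-0.59), while Uqcc3 had the highest ratio (0.02) and Uqcc1 was the most abundant at 19.8 and 13.2 CPM. Of 20 for complex IV, the copper chaperone Cox17 was lower (11.3 and 6.83 CPM, -0.73), Sco2, which also delivers copper, had the highest ratio (0.45), and Cox16 was the most abundant at 106 and 88.1 CPM. None of the 3 for complex V passed, with Atpaf1 at 0.26 and Tmem70, the most abundant, at 31.7 and 26.5 CPM (-0.26). The medians of these 4 lists were -0.19, -0.49, -0.23 and -0.21.

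Regulators of mitochondrial genes had a median log2 ratio of 0.10 over 14 measured genes. None was 1.5-fold lower or higher, where 9.76% and 10.5% of all measured genes were, so in a list of this size a count of 0 says little. The coactivators Ppargc1a and Ppargc1b were at 7.64 and 8.58 CPM (0.17) and at 3.69 and 4.64 CPM (0.33). Nrf1 was at 12.4 and 15.2 CPM (0.30), and the nuclear receptor Esrra, a partner of these coactivators, at 4.38 and 3.67 CPM (-0.26). Gabpb1, the most abundant of the list, was at 17.1 and 18.8 CPM. Transcript levels of regulators say nothing of their activity.

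Matrix and membrane pathways beside the complexes were mixed. In the citric acid cycle, Fh1 (fumarase) was at 118 and 65.6 CPM (log2 ratio -0.85) and Idh2 at 44.7 and 68.0 CPM (0.61), the only 2 of 14 genes past 1.5-fold, a share near that of all measured genes. In the same list, Ogdh was the most abundant at 541 and 656 CPM. The median of the cycle was 0.09. In ubiquinone synthesis none of 12 passed (median -0.00, from Coq10b at -0.54 to Coq4 at 0.50), and Adck3 was the most abundant at 154 and 154 CPM. Of 15 import and folding genes, the chaperonin Hspe1 was lower (54.3 and 32.9 CPM, -0.72), Tomm40 had the highest ratio (0.31), and Hspa9 was the most abundant at 183 and 173 CPM. The uncoupling protein Ucp2 was at 31.7 and 78.0 CPM (1.30), beside the phosphate carrier Slc25a3 at 314 and 271 CPM (-0.21) and the ADP/ATP carrier Slc25a5 at 231 and 265 CPM.

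**Figure D4:**
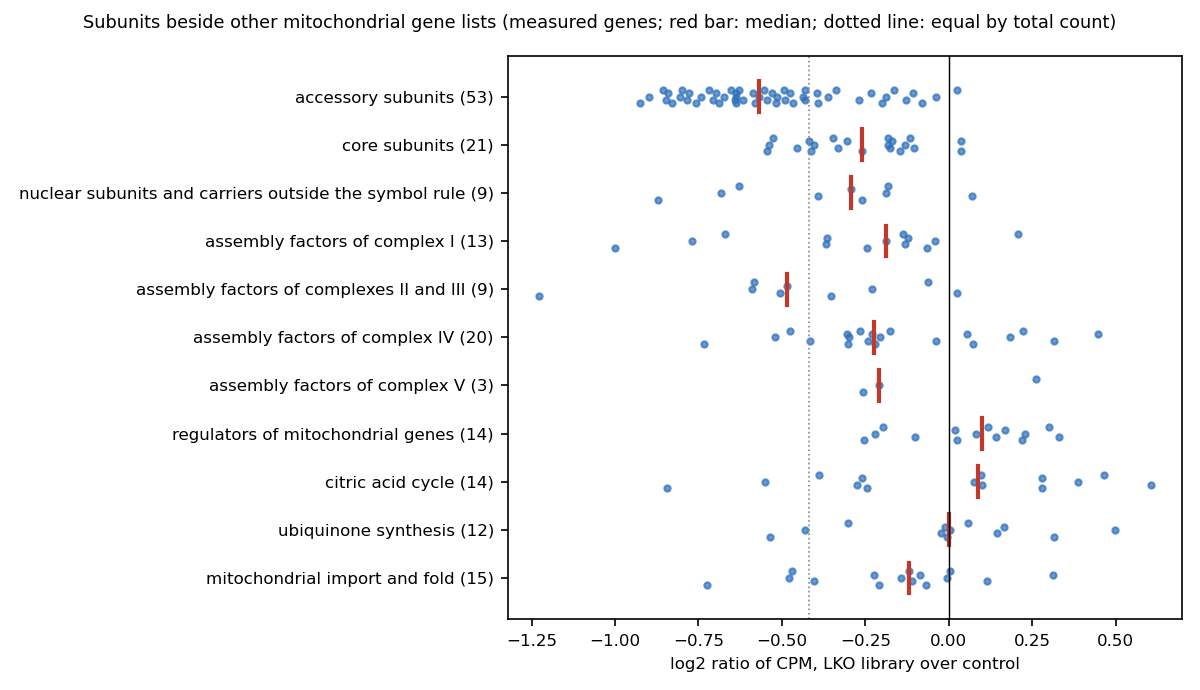
Log2 ratio of CPM, LKO-labelled over control library, for measured genes of each list (points; number of genes in brackets), with the median as a red bar and the position of equality by total count as a dotted line. Of the lists plotted, accessory subunits have the lowest median (-0.57), core subunits lie at -0.26, and regulators and the citric acid cycle lie near 0. The lists differ in median transcript length, with 738 nt for accessory subunits and 3954 nt for regulators. With the length and GC trend removed, accessory subunits had a median of -0.31 and assembly factors of complexes II and III -0.34.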

How the data were processed

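The tables that the authors deposited, 1 for each of the 2 libraries, hold unnormalized counts by gene symbol. RNA was extracted with Trizol and libraries were made with a Lexogen mRNA-Seq kit, per the labels' protocols. The submitters' processing notes name TopHat, edgeR and build mm10. Not given in the sources used here are versions, the read counter, its annotation, whether strand was used and how multi-mapped reads were handled.

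CPM were computed from the counts as deposited with TMM factors (edgeR 4.0.16, R 4.3.3). Each ratio has a 95% Clopper-Pearson interval conditional on the summed count (scipy 1.17.1). PCR duplicates are not independent molecules, so intervals cover counting error only. Calls needed 1.5-fold and an interval excluding 1. With 1 library per genotype no count test was run. The procedure was tested on simulated data. DESeq2 1.42.0 size factors served as an alternative.

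Symbols were matched to GENCODE M21 (GRCm38), 24054 of 24421, and lengths are of the longest coding transcript. Trends with length and GC content used lowess (fraction 0.3, statsmodels 0.14.6), fitted without mitochondrial and ribosomal protein genes. Close copies have at least 95% identity over 200 nt (BLAST 2.17.0). Subunits were classed as core for a bacterial counterpart or a redox centre. Only Uqcrc1 and Uqcrc2 were also tried in the other class.

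Named with values were core subunits, tissue forms, genes past 1.5-fold, and the 3 highest ratios, lowest ratios and levels per length of each complex. Of each other list, the highest, lowest and most abundant gene was named. Ndufb10, Gabpa, Cyc1, Slc25a3, Slc25a5, the activators and a few further subunits were added after their values were seen. A core gene that the rule names is counted but its values are not reported here. The genes and lists were chosen with earlier results of these data known.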

Additional observations from a re-analysis of the deposited data

How the results depend on the processing

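The count of 25 genes at least 1.5-fold lower became 0 with total-count scaling, 14 with totals without the 20 most abundant genes, 10 with totals without Mup genes and 3 after the length and GC trend was removed. It was 52 at a threshold of 0.32 on the log2 scale and 0 at 2-fold. Among genes with no close copy and no overlapping gene, a choice made after seeing the data, it was 10. The single higher gene was lost (0) with a mean CPM of at least 10, among liver subunits only, and among genes with no copy or overlap. The median log2 ratio of -0.47 became -0.052 with total counts, -0.35 without the top 20 genes, -0.29 without Mup genes and -0.24 after trend removal. The difference of 0.31 between core and accessory subunits was the same under every scaling. It became 0.15 after trend removal, 0.39 with Uqcrc1 and Uqcrc2 counted as core, 0.23 in complex I alone and 0.41 among genes with no copy or overlap. The complex II median of -0.17 changed sign with total counts (0.25) and without Mup genes (0.0057). For these changes the cause was not tested beyond each setting's own construction: a scaling shifts all genes alike, and a smaller set holds fewer genes. Of the 25 lower genes, 25 lost the call with total counts, 22 after trend removal, 15 without Mup genes and 11 without the top 20. DESeq2 size factors, upper-quartile scaling, added counts and no filter left the 4 summary values (both counts, the median and the class difference) on the same side, with 25 or 26 genes lower. A 99% interval, run for both counts, left them at 25 and 1. With the longest transcript of any kind, the level of Atp5g3 was 2291 rather than 2732 CPM per kb. No paired analysis was possible because each genotype has 1 library and no test was made, and no library could be left out for the same reason. Depth limits only the rare genes here: Ndufa4l2 and the tissue forms of complex IV.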
